A study of Mus musculus with 24 samples.

Results

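Transcript levels were compared between ischemia-reperfusion (I/R) and sham surgery in the part of the heart above the tie on the left anterior descending coronary artery (LAD), in mice labelled MuRF1 Tg+. MuRF1, the product of Trim63, is a muscle ubiquitin ligase found at the sarcomere. The arrays were chosen by their labels alone: 3 of tissue above the site from Tg+ hearts after I/R and 3 from Tg+ hearts after sham surgery, 6 of the 24 arrays of the series. In I/R the LAD is tied and then released, and in sham hearts the piece was taken above the place where the tie would have gone. By their labels all of these mice carried the transgene. They were 12 to 16 weeks old and had 2 pieces taken from each heart. The labels count 3 biological replicates per genotype and surgery. The strain of the adult mice, the promoter that drives the transgene and how long the heart was reperfused before harvest are not given in the sources used here. Each array set RNA of 1 heart piece (Cy5) against a common reference pooled from whole C57BL/6 pups on day 1 after birth (Cy3). Values are log2 Cy5/Cy3 ratios, so 1 unit is a doubling and a positive value means more signal from the heart than from the pups. Wild-type arrays of the same piece and Tg+ arrays of the piece below the tie, with their own shams, were used only to test where the response differed.

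Tying and releasing a coronary artery damages heart muscle downstream of the tie, and the tissue above it keeps its blood supply but shares the same beating heart, circulation and inflammatory signals. Injured myocardium is known for a stress and acute-phase response driven by cytokines and stress hormones, for entry of neutrophils and monocytes, and for remodelling of the extracellular matrix. Cardiomyocytes themselves can shift fuel use and return to a partly fetal gene programme, in which natriuretic peptides and the slow myosin Myh7 are higher.

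The Cy5 channel was dimmer after I/R. On the sham arrays 40.5%, 40.7% and 39.4% of Cy5 spots were well above background, and on the I/R arrays 37.9%, 31.3% and 29.2%. Every I/R array thus lay below every sham array in this measure, and its part in the results below was not tested. The reference channel lay between 39.5% and 50.6%. Ratios correlated at 0.976 to 0.991 among sham arrays, 0.932 to 0.962 among I/R arrays and 0.854 to 0.94 between the groups. The median standard deviation (SD) of a feature was 0.0814 among sham arrays and 0.123 among I/R arrays. The sham arrays sat on slides 3, 3 and 5 and the I/R arrays on slides 4, 5 and 6, so that only slide 5 held both groups. Sham array 2 stood apart from the other sham arrays in genes of atrial muscle, where it lay close to the I/R arrays, as described with those genes. Without it 1410 features were called in the main comparison, against 1748 with it.

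No gene examined here gave an independent check of the genotype label. Trim63 measured 2.47, 2.29 and 2.33 on the sham arrays and 2.28, 1.43 and 1.49 on the I/R arrays. Its I/R minus sham difference of -0.63 ± 0.39 (standard error, SE, as for all values after ± unless given as SD) did not pass the test (adjusted p = 0.275), and a dimmer probe gave 0.000667. Wild-type sham hearts had nearly the same level in this piece, 2.34 ± 0.13 (SD, n = 3) against 2.36 ± 0.09 (SD, n = 3). No source used here says whether either probe lies in the transgene, so Trim63 does not check the label. Sprr2b and Sprr2k, which set Tg+ sham hearts apart from wild-type sham hearts in these data, were near the wild-type level on the arrays labelled Tg+ after I/R, as described further on. These genes were found in these same data, so they do not independently check the genotype label of the sham or I/R arrays. ENSMUST00000035300 was also lower in Tg+ than in wild-type sham hearts in both pieces. After I/R its Tg+ minus wild-type difference was -0.22 above the site (limma, adjusted p = 0.699) and -0.78 below it (adjusted p = 0.0539).

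Of 11419 features tested, 1748 differed between I/R and sham at an adjusted p under 0.05 (limma, Benjamini-Hochberg), which is 15.3% of all. After I/R 795 were higher (6.96%) and 953 lower (8.35%). Each list count below is to be read beside these shares. At an unadjusted p under 0.05 the count was 3630. The increases were the larger changes: 118 features rose by at least 1 log2 unit and 20 by at least 2, against 42 and 0 that fell by as much. The median called increase was 0.57 and the median called decrease -0.49, while the median of all features was 0.0018. In 783 of the 795 features called higher every I/R array lay above every sham array, as it did in 2870 of all features tested. In 940 of the 953 called lower every I/R array lay below every sham array, against 2691 of all. Within slide 5, where sham array 3 and I/R array 2 lay side by side, 795 of 795 and 952 of 953 of these features differed in the called direction. Both arrays were among the 6 that gave the calls, so this is no separate check of them. With the slide as a block the count was 359, of which 355 were among the 1748. It was 721, 749, 869 and 686 without sham array 1, sham array 3, I/R array 2 or I/R array 3, and 3697 when only the 6 arrays were fitted. Whichever of the 6 arrays was left out, 243 of the increases and 268 of the decreases were called each time, and each of the other calls was lost without at least 1 of them.

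**Figure D1:**
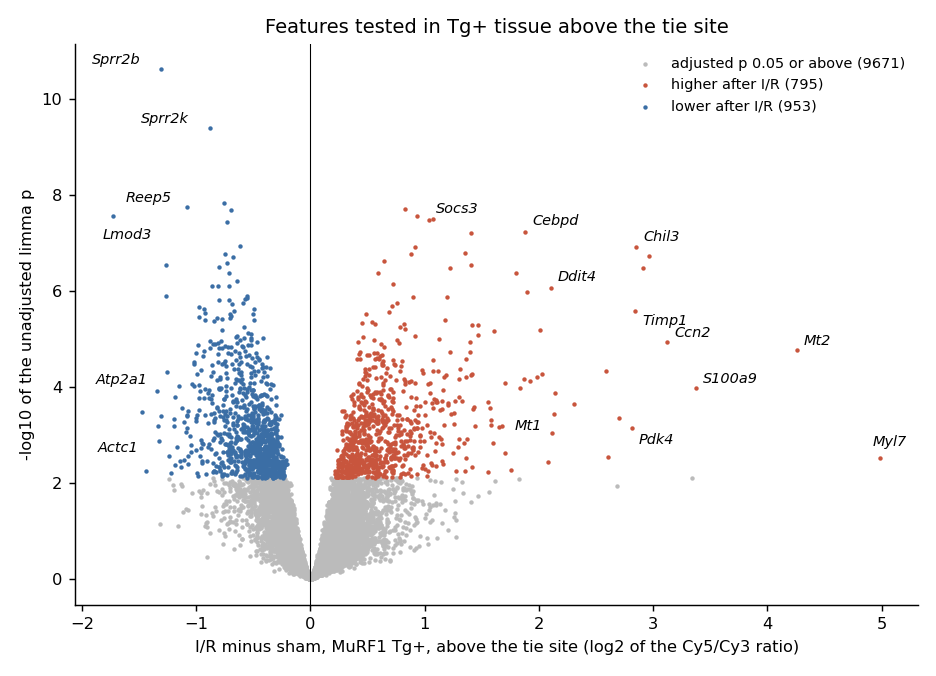
Each point is 1 of the 11419 features, with the I/R minus sham difference (log2 units) on the horizontal axis and -log10 of the unadjusted limma p on the vertical axis; red and blue points passed an adjusted p of 0.05. The red points (795) reach 4.99 on the right, the blue points (953) reach -1.72 on the left, and Sprr2b and Sprr2k stand highest.

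The largest increases included stress, inflammatory, matrix and fuel genes, with the atrial gene Myl7 first. The 15 largest were Myl7, Mt2, S100a9, Ccn2, 1200016E24Rik, ENSMUST00000006171, Chil3, Timp1, Pdk4, Angptl4, Myh7, NAP066348-1, Saa3, Mmp3 and Mt1. Differences ran from 4.99 for Myl7 to 2.14 for Mt1. Of the 15, 11 kept their call whichever of the 6 arrays was left out, and 7 did so in all 18 alternative analyses (Mt2, Ccn2, 1200016E24Rik, ENSMUST00000006171, Chil3, Timp1 and NAP066348-1). The names 1200016E24Rik, ENSMUST00000006171 and NAP066348-1 are those of the array's design. The first of these rose by 2.96 ± 0.36 (adjusted p = 0.000104) and the others by 2.91 ± 0.38 and 2.59 ± 0.49.

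**Figure D2:**
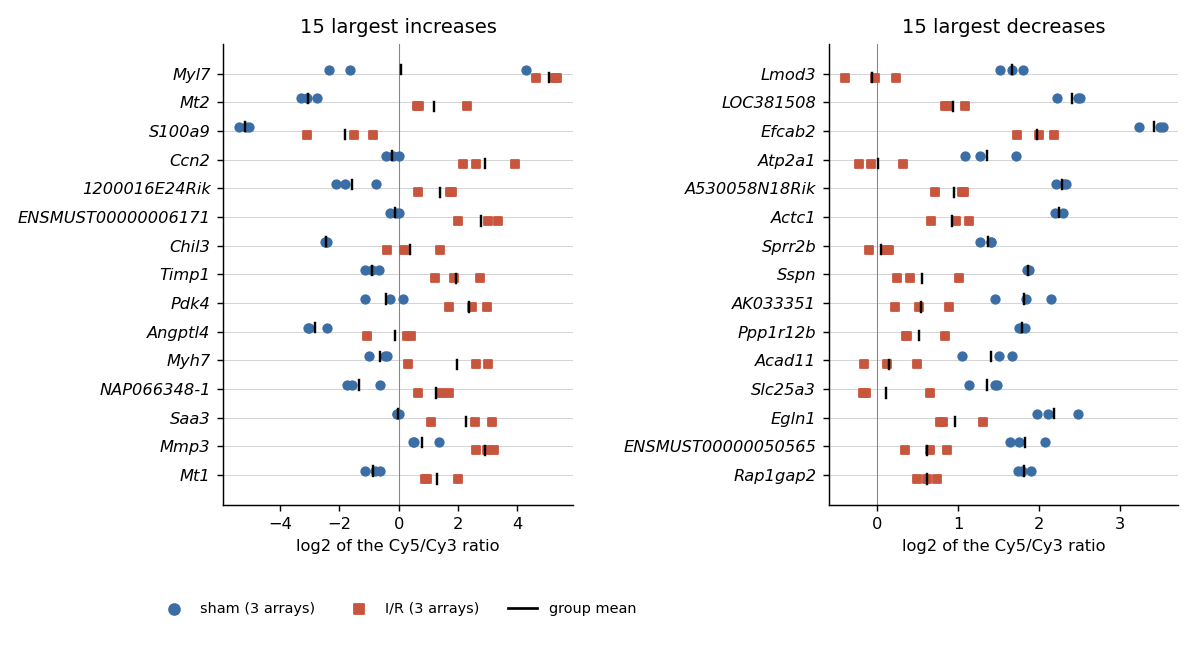
Log2 Cy5/Cy3 ratio on each of the 3 sham arrays (blue circles) and 3 I/R arrays (red squares) for the 15 largest increases (left) and 15 largest decreases (right) past the threshold; black ticks are group means. Groups are apart in each row, but sham array 2 lies at 4.28 for Myl7, close to the I/R arrays at 4.62 to 5.34.

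Metallothioneins, small cysteine-rich proteins that bind zinc and copper and are induced by metals, glucocorticoids and oxidative stress, gave some of the largest changes. Mt2 measured -2.76, -3.31 and -3.09 on the sham arrays and 0.62, 0.69 and 2.30 on the I/R arrays. The groups were far apart, with I/R array 3 the highest, and Mt2 was 19.1-fold higher after I/R (4.26 ± 0.75, adjusted p = 0.0016). Mt1 measured -0.64, -1.13 and -0.81 in sham hearts and 0.89, 0.96 and 1.99 after I/R, a rise of 2.14 ± 0.49 (adjusted p = 0.00844). I/R array 3 was again the highest for Mt1, and without it the adjusted p was 0.0548. Another Mt1 probe differed by only 0.18. Of 12 tested genes of metal handling (13 listed), 4 rose and 1 fell, with a median of 0.33. The others that rose were hepcidin (Hamp, 0.90 ± 0.21), the hormone that blocks iron export, and the ferroxidase ceruloplasmin (Cp, 0.80 ± 0.15). Hamp was above background on 1 of 3 sham arrays. The metal transporter Slc11a2 fell (-0.41 ± 0.12), and the ferritin heavy chain Fth1 measured 0.82 higher without passing the test (adjusted p = 0.328).

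The 250 bases before the start of each metallothionein gene are shown because both genes rose. Matches to their best known regulatory motif, the metal response element (MRE), were sought there. Such matches count a short pattern, and whether any is a working element was not tested. Bases outside the windows were not searched. They come from RefSeq (GRCm38.p6), are written 5′ to 3′ on the plus strand, at chr8:94178839-94179088 for Mt1 and chr8:94172368-94172617 for Mt2, and capitals mark matches to TGCNCNC on either strand.
Mt1: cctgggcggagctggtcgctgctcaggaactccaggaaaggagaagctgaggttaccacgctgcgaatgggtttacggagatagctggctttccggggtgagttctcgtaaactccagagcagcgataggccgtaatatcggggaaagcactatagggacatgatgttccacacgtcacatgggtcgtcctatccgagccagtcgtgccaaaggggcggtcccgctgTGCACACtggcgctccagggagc
Mt2: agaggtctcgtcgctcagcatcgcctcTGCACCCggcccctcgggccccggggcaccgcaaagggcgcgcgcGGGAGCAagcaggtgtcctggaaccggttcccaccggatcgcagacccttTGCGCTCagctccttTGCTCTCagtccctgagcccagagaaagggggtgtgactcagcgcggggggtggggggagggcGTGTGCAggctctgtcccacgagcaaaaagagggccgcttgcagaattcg
The Mt1 window held 1 match, at -23 to -17 counted from the start of the gene. The Mt2 window held 5, the nearest at -50 to -44, and the windows were identical at 133 of 272 aligned positions (48.9%). This motif is common: it was in 43.8% of all 27025 promoter windows of the table and in 52.5% of the 8317 that belong to tested features. Among features called higher the share was 51.8%, and among those called lower 54.6%.

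Genes known to answer to glucocorticoids were mostly higher after I/R. Of 18 tested (20 listed), 13 rose and 0 fell, with a median of 1.07, against 6.96% of all features called higher. The metallothioneins are among them. Lipocalin 2 (Lcn2) also rose, but it was above background on no sham array and passed the filter only through brighter arrays. Fkbp5 was above background on 1 of 3 sham arrays. The lists overlap: Cebpd and Lcn2 count again under IL-6 and C/EBP, and Pdk4 and Angptl4 under PPAR and fuel switch. Ddit4, which restrains mTORC1, measured -1.42, -0.94 and -1.17 in sham hearts and 0.67, 1.26 and 0.85 after I/R, a rise of 2.10 ± 0.29 (adjusted p = 0.000271). The transcription factor Cebpd measured -1.19, -0.23 and -0.87 against 1.05, 1.32 and 0.96 and rose by 1.88 ± 0.22 (adjusted p = 5.46e-05). Neither gene's groups overlapped. The sulfotransferase Sult1a1 rose by 1.41 ± 0.16, the cell cycle inhibitor Cdkn1a by 1.19 ± 0.17, Tsc22d3 (GILZ) by 0.96 ± 0.25, glutamine synthetase (Glul) by 0.85 ± 0.28 and the receptor co-chaperone Fkbp5 by 0.63 ± 0.15. Members that did not pass included Sgk1 (0.63, adjusted p = 0.253), Klf9 (-0.41), Dusp1 (0.28) and Per1 (0.25). The count of members called higher was 8 without I/R array 3 and 9 to 14 without any other single array. It was 5 with the slide as a block.

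Genes of a list named for interleukin-6 (IL-6) and C/EBP, which holds acute-phase genes, were mostly higher in the same samples. Il6 itself could not be tested, and what raised these genes was not tested. Of 16 tested genes of the IL-6 and C/EBP list (19 listed), 12 rose and 0 fell, with a median of 1.11. At the receptor level Osmr, which binds oncostatin M, rose by 1.18 ± 0.18 and Lifr by 0.36 ± 0.09, while the shared subunit Il6st measured -0.40 (adjusted p = 0.185). Among the transducers Stat3 measured -0.0024, 0.46 and -0.07 in sham hearts and 1.11, 1.62 and 1.56 after I/R, a rise of 1.30 ± 0.28 (adjusted p = 0.00522). Its feedback inhibitor Socs3 measured -0.71, -0.66 and -0.79 against 0.03, 0.48 and 0.44, a rise of 1.04 ± 0.12 (adjusted p = 3.71e-05). For Stat3 and Socs3 every I/R array lay above every sham array. Socs1 (0.37 ± 0.12), Cebpb (0.74 ± 0.21) and Junb (1.39 ± 0.24) rose too. Among acute-phase products the serum amyloid Saa3 was at 2.58, 1.09 and 3.16 after I/R and was not well above background on any sham array, which puts it at least 4.89-fold higher. Such a bound sets the mean of the bright group against the lowest signal that still counted as above background, and dye bias could shift it. Lipocalin 2 (Lcn2) measured 1.26, 0.85 and 1.31 after I/R (adjusted p = 0.0185) and was likewise not above background in sham hearts, so that Saa3 and Lcn2 entered the 12 only through brighter arrays. Serpina3n (1.55 ± 0.34) and haptoglobin (Hp, 1.44 ± 0.35) rose. The count was 8 to 12 when any 1 of the 6 arrays was left out, and 5 with the slide as a block.

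Cytokine, chemokine and adhesion genes also rose as far as they could be measured. Il6, Il1b and Tnf were among the listed genes that were not well above background on all arrays of any group and were not tested. Of the 17 tested (29 listed), 10 rose and 1 fell, with a median of 0.71. The chemokine Ccl9 measured -0.42, -0.08 and -0.55 in sham hearts and 0.77, 0.73 and 1.37 after I/R, a rise of 1.31 ± 0.25 (adjusted p = 0.00249). The monocyte chemoattractant Ccl2 measured 0.01, -0.02 and 0.03 against 0.19, 1.29 and 1.43 (0.96 ± 0.27, adjusted p = 0.0209). I/R array 1 was thus far lower for Ccl2 than the other I/R arrays. The alarmin Il33 rose by 1.14 ± 0.30, the adhesion molecules Icam1 and Vcam1 by 1.15 ± 0.25 and 0.71 ± 0.21, and the receptors Tnfrsf12a, Il4ra, Tnfrsf1a and Il1r1 by 1.09 ± 0.34, 0.96 ± 0.21, 0.63 ± 0.13 and 0.37 ± 0.10. Osmr (above) is counted here as well. The chemokine Cxcl12 fell (-0.66 ± 0.13), but another of its probes differed by 0.14 the other way. The count of members called higher was 5 without sham array 1, 6 without sham array 3 or I/R array 3 and 7 to 10 without any other.

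Of 20 tested immediate early genes (28 listed), which encode transcription factors and regulators switched on within minutes of a stimulus, 7 rose and 0 fell, with a median of 0.57. Maff, a small Maf protein, measured -0.46, -0.13 and -0.20 in sham hearts and 1.02, 1.50 and 0.91 after I/R, a rise of 1.40 ± 0.18 (adjusted p = 0.000132). Junb and Atf3 are AP-1 family members. Junb was listed above, and Atf3 measured -0.11, 1.54 and 0.44 after I/R against -0.43, -0.27 and -0.50 (1.02 ± 0.30, adjusted p = 0.0257). Egr1, Ier2, Btg2 and Csrnp1 rose by 0.79 ± 0.20, 0.76 ± 0.18, 0.59 ± 0.14 and 0.56 ± 0.16. In Atf3, Btg2 and Csrnp1 I/R array 2 was the highest of the 6. Fos was not tested, because it was not well above background on all arrays of any group. The count was 4 without sham array 1 or 3 and 13 without I/R array 1.

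**Figure D3:**
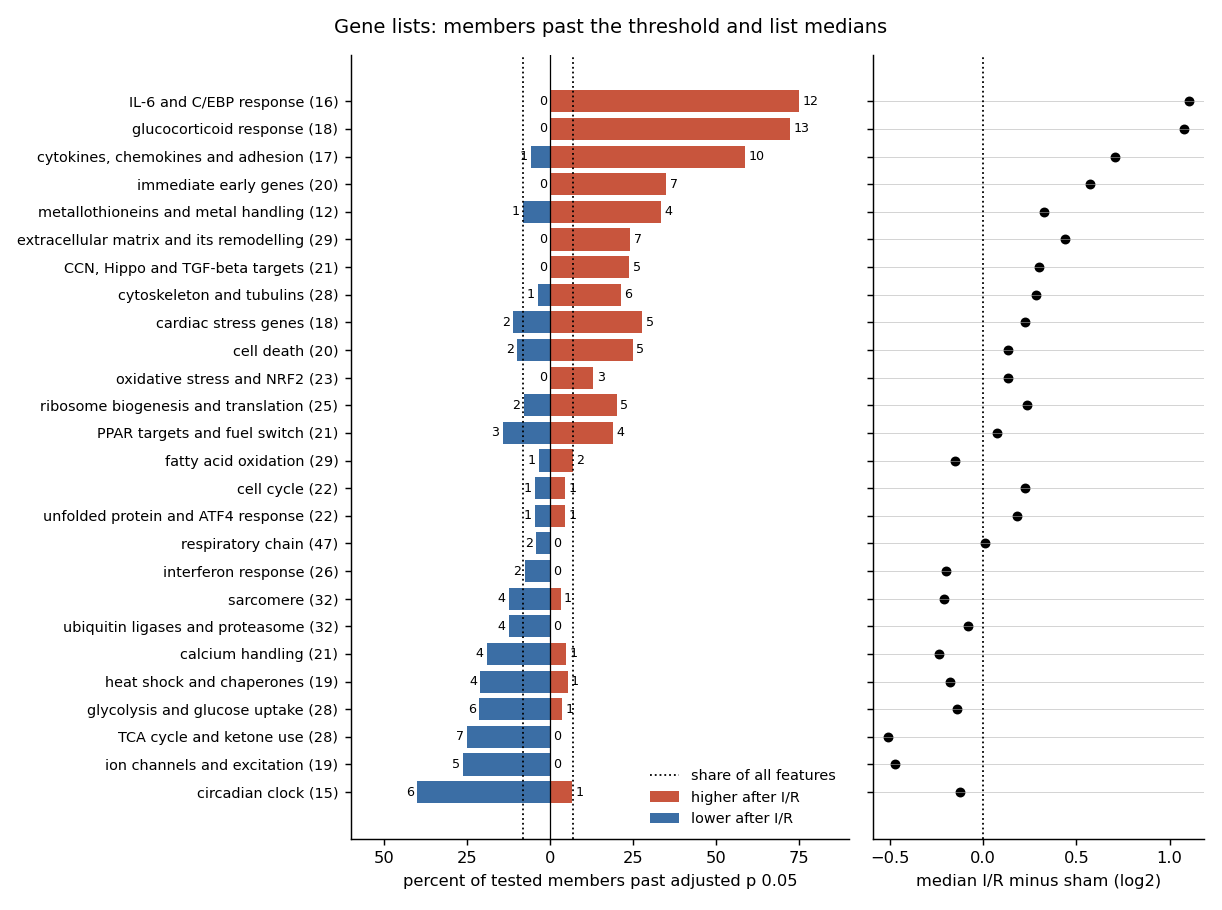
Left, percent of the tested members of each of 26 gene lists (number tested in brackets) that were higher (red, right of 0) or lower (blue, left of 0) after I/R, with counts at the bar ends and dotted lines at the shares over all features (6.96% and 8.35%); right, the median I/R minus sham difference of each list in log2 units. Bars run from 12 of 16 higher for the IL-6 and C/EBP list at the top to 6 of 15 lower for the circadian list at the bottom.

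The leukocyte genes that could be measured in both groups and were called were higher after I/R. In bulk tissue, more cells of a type and more RNA per cell cannot be told apart, and this holds for every marker list below. Of 15 neutrophil markers 7 could be tested, and of the 3 that were above background on all sham arrays S100a9 and S100a8 rose and Ltf did not pass (0.34). The alarmin S100a9 measured -5.38, -5.05 and -5.16 in sham hearts and -3.10, -0.85 and -1.52 after I/R, 10.4-fold higher (3.37 ± 0.69, adjusted p = 0.0042). Its partner S100a8 rose by 1.83 ± 0.37. I/R array 1 was the lowest I/R array for both. Lcn2, Retnlg and the collagenase Mmp8 were not above background on any sham array and passed the filter only through arrays on which they were brighter. Retnlg and Mmp8 were at least 2.00-fold and 1.37-fold higher, and Lcn2 is given above. Csf3r and Cxcr2, receptors that define neutrophils, were not tested. Mmp8 lost its call without sham array 1, I/R array 2 or I/R array 3 (adjusted p up to 0.0663).

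Chil3, a chitinase-like protein of neutrophils and alternatively activated macrophages, measured -2.47, -2.42 and -2.49 in sham hearts, where it was above background on 1 of 3 arrays, and -0.40, 0.17 and 1.41 after I/R (2.85 ± 0.35, adjusted p = 8.51e-05). Of 22 tested macrophage and monocyte markers (25 listed), 10 rose and 1 fell, with a median of 0.37. Lgals3 (galectin-3) measured -1.53, -1.49 and -1.91 in sham hearts and -0.56, -0.46 and 0.15 after I/R, a rise of 1.36 ± 0.17 (adjusted p = 0.000102). Markers of resident macrophages also rose: the haemoglobin scavenger receptor Cd163 by 1.20 ± 0.27, F13a1 by 1.19 ± 0.23, Lyve1 by 1.07 ± 0.20 and the mannose receptor Mrc1 by 0.57 ± 0.13. Cd14, Fcgr1, Fcgr3 and Cd68 rose by 0.72 ± 0.15, 0.56 ± 0.17, 0.56 ± 0.10 and 0.31 ± 0.07. Arg1 and H2-Aa entered these counts only through the group in which they were bright. Arginase 1 (Arg1) was not above background in sham hearts and was at least 2.12-fold higher. The class II molecule H2-Aa was not above background after I/R and was at least 1.49-fold lower, and its chaperone Cd74 measured -0.43 (adjusted p = 0.0766). The lysozyme Lyz2 and the complement gene C1qc did not pass (0.34 and 0.39). The mean ratio of this list was -0.53, -0.34 and -0.57 on the sham arrays and -0.0056, -0.09 and 0.07 on the I/R arrays. The count of members called higher was 7 to 11 when any 1 array was left out. Of lymphocyte markers only Cd79b could be tested (0.20, adjusted p = 0.24), and no erythroid marker of 5 passed.

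Matrix remodelling genes were higher while the main fibrillar collagens were not called. Of 29 tested extracellular matrix genes (35 listed), 7 rose and 0 fell, with a median of 0.44. Timp1, an inhibitor of matrix metalloproteinases, measured -0.89, -0.65 and -1.15 in sham hearts and 1.24, 1.85 and 2.73 after I/R, a rise of 2.84 ± 0.43 (adjusted p = 0.000546), with smaller differences at its other probes (0.91 and 0.93). The metalloproteinase Mmp3 measured 0.51, 1.38 and 0.49 against 3.20, 2.60 and 2.98 (2.14 ± 0.45, adjusted p = 0.00485). The groups of both genes were apart, although sham array 2 was the highest sham array. The protease Adamts1 rose by 1.65 ± 0.41, thrombospondin 4 (Thbs4) by 1.04 ± 0.22, Timp4 by 1.02 ± 0.34 and the urokinase receptor Plaur by 0.41 ± 0.12. Another Adamts1 probe differed by only 0.39. The collagens Col3a1 and Col1a1 and periostin (Postn) measured 1.10, 0.79 and 0.80 higher without passing (adjusted p = 0.102, 0.449 and 0.256). The count was 3 without sham array 1 or I/R array 3, 4 without I/R array 2 and 1 with the slide as a block. Adamts1 lost its call without sham array 1, I/R array 2 or I/R array 3 (adjusted p up to 0.0722).

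Among targets of YAP/TAZ and TGF-beta, Ccn2 (CTGF), a matrix-associated growth regulator, changed most. It measured -0.43, -0.0050 and -0.19 in sham hearts and 2.16, 2.63 and 3.94 after I/R, 8.69-fold higher (3.12 ± 0.53, adjusted p = 0.00132). Of 21 tested genes of that list (24 listed), 5 rose and 0 fell, with a median of 0.30. The ligands Tgfb2 and Tgfb3 rose by 0.82 ± 0.22 and 0.51 ± 0.16 and the target Tgfbi by 0.91 ± 0.26. Ccn1, the other immediate target, measured 0.74 higher (adjusted p = 0.0715), and Ankrd1 0.48 (adjusted p = 0.252). The count was 1 without sham array 1 or I/R array 3 and 2 without sham array 3. Tgfb2 lost its call without sham array 1 or 3 or I/R array 2 or 3 (adjusted p up to 0.102) and Tgfbi without sham array 1 or 3 or I/R array 1 or 3 (up to 0.129).

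Of 19 fibroblast markers, all tested, 5 rose and 1 fell, with a median of 0.61. Decorin (Dcn) measured -0.54, -0.16 and -0.45 in sham hearts and 1.42, 1.24 and 1.30 after I/R, a rise of 1.71 ± 0.34 (adjusted p = 0.00365). Fibulin 1 (Fbln1), gelsolin (Gsn), Dpep1 and Mfap5 rose by 1.16 ± 0.24, 1.15 ± 0.31, 0.90 ± 0.13 and 0.61 ± 0.19, and osteoglycin (Ogn) fell (-0.60 ± 0.13). The count called higher was 3 without sham array 1 or 3 or I/R array 2. The list's mean ratio was -1.46, -1.18 and -1.51 on the sham arrays and -0.81, -0.79 and -0.84 on the I/R arrays, and sham array 2 was the highest of the sham arrays. Of 6 tested epicardial and mesothelial markers (13 listed), mesothelin (Msln, 1.58 ± 0.35) and the retinoic acid enzyme Aldh1a2 (0.64 ± 0.15, lost without I/R array 3 at adjusted p = 0.0661) rose. Of 20 endothelial markers 3 rose: the fatty acid transporter Cd36 (1.10 ± 0.24), the tight junction protein Cldn5 (1.00 ± 0.31) and Ly6c1 (0.90 ± 0.25). The count was 1 without sham array 2 or 3 or I/R array 2 or 3. Pecam1, Cdh5 and Kdr, which define endothelium, were not among those called. Smooth muscle markers went both ways, with transgelin (Tagln, 1.68 ± 0.41), Lmod1 (0.74 ± 0.23) and Cspg4 (0.49 ± 0.13) higher and smoothelin (Smtn, -0.62 ± 0.08), Abcc9 (-0.97 ± 0.20) and Acta2 (-0.84 ± 0.19) lower. The other probes of Acta2 went the other way (0.53 and 0.70), and the mean of all its probes was 0.13. Tagln was at -2.45, -0.75 and -2.09 in sham hearts, again highest on sham array 2, and lost its call without sham array 1 or 3 (adjusted p up to 0.0744).

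Atrial genes separated sham array 2 from the other sham arrays. The atrial myosin light chain Myl7 measured -1.66, 4.28 and -2.35 on the sham arrays and 4.62, 5.27 and 5.34 on the I/R arrays. The difference of 4.99 ± 1.47 was the largest of all features called (adjusted p = 0.0285), and its call was lost without sham array 1 or 3 or I/R array 2 or 3 (adjusted p up to 0.15). Sarcolipin (Sln), which inhibits the calcium pump in atrial muscle, measured -4.68, -0.94 and -4.71 against 0.71, -0.30 and -0.71 and just missed the threshold (3.34 ± 1.13, adjusted p = 0.0509). Myl4, the other atrial light chain, measured -2.71, 1.01 and -2.83 against 1.41, 0.96 and 1.15 (2.68, adjusted p = 0.0621). Sham array 2 was thus close to the I/R arrays in all of these genes. The mean ratio of the 13 tested atrial markers (15 listed) was -0.19, 1.20 and -0.22 on the sham arrays and 1.59, 1.40 and 1.36 on the I/R arrays. Of the 13, 3 rose (Myl7, Nppa and Nr2f2, 0.66 ± 0.20) and 0 fell. Without sham array 2 the count was 6, and it was 0 without sham array 1 or 3 or I/R array 2 or 3. No source used here says how much atrium each piece held, and its part in the other results was not tested. Among conduction and nerve markers the transcription factor Tbx3, measured at -0.29, 0.10 and -0.33 in sham hearts and 0.51, 0.66 and 0.48 after I/R, passed (0.72 ± 0.23), with a loss of the call whenever any array but sham array 2 was left out (adjusted p up to 0.148).

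**Figure D4:**
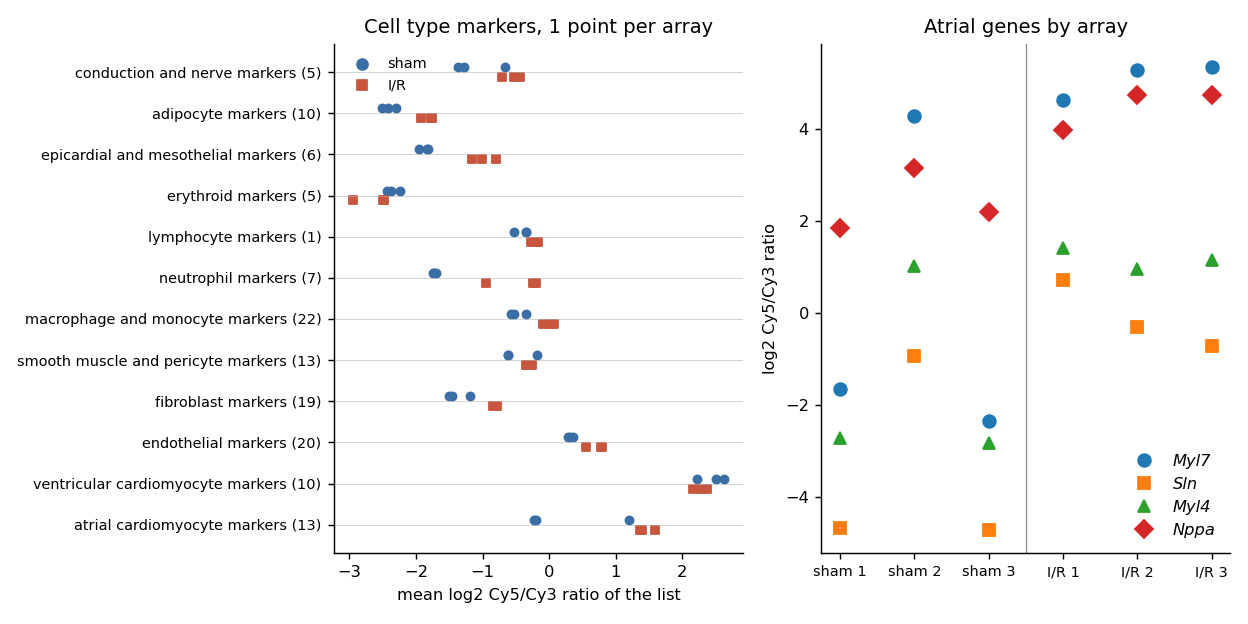
Left, mean log2 Cy5/Cy3 ratio of the tested members of 12 cell type marker lists (number tested in brackets) on each sham array (blue circles) and I/R array (red squares); right, 4 atrial genes on each of the 6 arrays. The atrial list lies at 1.20 on sham array 2, near the I/R arrays at 1.36 to 1.59, while the other sham arrays lie at -0.19 and -0.22.

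Ventricular identity genes were lower where they were called, with 1 exception. The mean ratio of the 10 tested markers (12 listed) stayed well above 0 on every array, from 2.22 to 2.63 in sham hearts and 2.16 to 2.37 after I/R. Of the 10, 4 fell and 1, Myh7, rose. Fhl2, a LIM-domain protein, measured 5.60, 5.63 and 5.58 in sham hearts and 4.42, 4.79 and 4.67 after I/R, a fall of 0.98 on the log2 scale (SE 0.22, adjusted p = 0.00757). The cofactor Lbh (-0.84 ± 0.20), the ventricular transcription factor Irx4 (-0.83 ± 0.24) and the potassium channel Kcnd2 (-0.72 ± 0.21) fell as well. The ventricular light chains Myl2 (-0.53, adjusted p = 0.502) and Myl3 (-0.15) were not called. The count of members called lower was 2 without sham array 1 or 3 and 1 without I/R array 3. Lbh lost its call without I/R array 3 (adjusted p = 0.0547), Irx4 without sham array 1 or 3 or I/R array 2 or 3 (up to 0.103) and Kcnd2 without any sham array or I/R array 3 (up to 0.122).

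Of 18 genes of cardiac stress, all tested, 5 rose and 2 fell, with a median of 0.22. The slow myosin Myh7, fetal in the mouse ventricle, measured -0.99, -0.47 and -0.40 in sham hearts and 3.01, 2.62 and 0.33 after I/R, a rise of 2.61 ± 0.76 (adjusted p = 0.0276). I/R array 3 was far below the other I/R arrays, and the call was lost without any sham array or I/R array 1 or 2 (adjusted p up to 0.106). The atrial natriuretic peptide Nppa measured 1.85, 3.16 and 2.19 against 3.97, 4.74 and 4.73, a rise of 2.08 ± 0.63 (adjusted p = 0.0311) that was lost without sham array 1 or 3 or I/R array 2 or 3 (up to 0.127). Nppa is on the atrial list as well, and sham array 2 was again the highest sham array. The part of atrial tissue in this rise was not tested. The ventricular counterpart of Nppa, Nppb, measured 1.34 higher (adjusted p = 0.0753). Fhl1 (1.75 ± 0.56), the TWEAK receptor Tnfrsf12a (1.09 ± 0.34) and the stretch-responsive Ankrd2 (0.89 ± 0.25) rose, and Xirp2 (-0.73 ± 0.24) and Acta2 fell. The count called higher was 0 without sham array 1 or 3 or I/R array 2 and 1 without I/R array 3.

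The contractile apparatus changed in a few members. Of 32 sarcomere genes, all tested, 4 fell and 1 rose, beside 8.35% and 6.96% of all features. The median of the list was -0.21. Lmod3, a leiomodin that nucleates actin filaments and holds thin filament length, measured 1.67, 1.52 and 1.80 in sham hearts and -0.03, 0.24 and -0.40 after I/R. This fall, (-1.72 ± 0.19, adjusted p = 3.71e-05), was the largest decrease of all features and held in all 18 alternative analyses. Cardiac actin (Actc1) measured 2.30 and 2.20 on sham arrays 1 and 3 (its spot on sham array 2 was left out) and 0.67, 0.98 and 1.13 after I/R (-1.32 ± 0.35, adjusted p = 0.0176), a call lost without sham array 1 or 3 (adjusted p up to 0.101). The thin filament cap Tmod1 (-0.55 ± 0.17) and the Z-disc protein Ldb3 (-0.76 ± 0.18) fell, and the Z-disc protein Pdlim3 rose (1.43 ± 0.32). The count called lower was 2 without sham array 1 or 3. Members of the cytoskeleton list mostly went the other way where called: beta-actin (Actb) rose by 1.07 ± 0.24, the intermediate filament protein vimentin (Vim) by 1.03 ± 0.33, Arpc1b by 1.08 ± 0.28, the capping protein Capg by 0.88 ± 0.11 and profilin (Pfn1) by 0.35 ± 0.10. With Tubb6 (1.09 ± 0.31, another probe opposite) they made up the 6 of 28 cytoskeleton genes that rose, and Tuba4a fell (-1.04 ± 0.21). That count was 2 without sham array 1 or 3 or I/R array 3 and 3 without I/R array 2.

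Calcium handling and excitation genes were lower where they were called, except for sorcin. Of 21 calcium genes 4 fell and 1 rose (median -0.23), and of 19 tested channel genes (27 listed) 5 fell and 0 rose (median -0.47). Asph, whose locus encodes junctin and aspartate hydroxylase, measured 1.02, 1.29 and 1.07 in sham hearts and 0.28, 0.14 and 0.10 after I/R (-0.95 ± 0.18, adjusted p = 0.00251). The L-type channel subunits Cacna1c (-0.78 ± 0.26) and Cacnb2 (-0.54 ± 0.17) fell, and sorcin itself (Sri), which binds the ryanodine receptor, rose (0.46 ± 0.11). The pump Atp2a1 fell (-1.35 ± 0.28), but another of its probes differed by 0.34 the other way. Phospholamban (Pln) and junctophilin 2 (Jph2) measured -1.31 and -1.24 without passing (adjusted p = 0.197 and 0.0511). Among the channels the KATP regulator Abcc9 measured 1.70, 1.36 and 1.74 against 0.99, 0.44 and 0.45 (-0.97 ± 0.20, adjusted p = 0.00382), with no overlap. The transient outward channel genes Kcnd2 (above) and Kcnip2 (-0.56 ± 0.18) fell as well. Kcnip2 was above background on 1 of 3 I/R arrays. The calcium count was 2 without any sham array or I/R array 2 or 3, and the channel count 1 or 2 without any of the same arrays. Cacnb2 lost its call without all but I/R array 1 (adjusted p up to 0.172) and Kcnip2 without sham array 1 or 3 or I/R array 2 or 3 (up to 0.152).

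Several known targets of fatty acid sensing rose after I/R, while the fatty acid oxidation genes as a list gave few calls. Pdk4, the kinase that shuts off pyruvate dehydrogenase, measured -0.30, 0.14 and -1.12 in sham hearts and 2.97, 1.70 and 2.48 after I/R, 7.03-fold higher (2.81 ± 0.70, adjusted p = 0.012, and 0.0668 without sham array 3). The lipase inhibitor Angptl4 measured -3.06, -2.42 and -3.02 against 0.41, -1.08 and 0.28 (2.70 ± 0.64, adjusted p = 0.00936). The groups of both were apart. The thioesterase Acot1 (1.87 ± 0.37), Cd36 (above) and the lipid droplet protein Plin2 (0.74 ± 0.20) rose too. The receptor PPAR-alpha itself (Ppara, -0.75 ± 0.13), its partner Rxrg (-0.84 ± 0.20) and the coactivator Ppargc1b (-0.71 ± 0.10) fell. Of 21 tested genes of the PPAR and fuel switch list (23 listed), 4 rose and 3 fell, with a median of 0.08 and a count called higher of 2 without sham array 3. Of 29 fatty acid oxidation genes 2 rose (Acot1, Cd36), near the share of all features, and 1 fell, the acyl-CoA dehydrogenase Acad11 (-1.25 ± 0.24). The median of that list was -0.15, and turned positive with the slide as a block.

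Of 28 genes of the TCA cycle and ketone use 7 fell and 0 rose, with a median of -0.51, and all 28 had a value below 0. Pdhb, a subunit of pyruvate dehydrogenase, measured 2.19, 1.94 and 2.25 in sham hearts and 1.36, 0.96 and 1.01 after I/R, a fall by 1.02 on the log2 scale (SE 0.19, adjusted p = 0.0022). Dlat and Dld, of the same complex, fell by 0.71 and 0.90. Dlst (-0.44 ± 0.14) and Ogdh (-0.98 ± 0.33) of the oxoglutarate dehydrogenase complex and Sucla2 (-0.73 ± 0.19) and Suclg1 (-0.62 ± 0.18) of succinyl-CoA ligase fell as well. The count was 1 without sham array 3 or I/R array 3, 2 without sham array 1 or I/R array 2 and 9 without I/R array 1, and 0 with the slide as a block. Leaving out 1 array ended the calls of Sucla2 (without sham array 3 or I/R array 2 or 3, adjusted p up to 0.0627), Dlat (without sham array 1 or 3 or I/R array 3, up to 0.0885) and Dld (without sham array 1 or 3 or I/R array 2 or 3, up to 0.0949). In the respiratory chain, of 47 genes 2 fell and 0 rose, below the 8.35% and 6.96% of all features. The median was 0.0077, and its sign turned in 9 of the 18 alternative analyses. The genes called were Ndufa10 (-0.85 ± 0.26) and Ndufb5 (-0.65 ± 0.20). Neither kept its call without sham array 1 or 3 or I/R array 2 or 3 (adjusted p up to 0.123 and 0.139).

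Of 28 tested glycolysis genes (30 listed) 6 fell and 1 rose, with a median of -0.14. Hexokinase 2 (Hk2) measured 2.41, 2.43 and 2.57 in sham hearts and 1.13, 1.87 and 1.61 after I/R (-0.93 ± 0.20, adjusted p = 0.00541). Muscle phosphofructokinase (Pfkm) measured 1.80, 1.76 and 1.79 against 1.01, 0.96 and 0.85 (-0.84 ± 0.13, adjusted p = 0.000696). Replicates of Pfkm lay within 0.2 of each other in each group. Muscle glycogen phosphorylase (Pygm, -0.70 ± 0.16), Pgk1 (-0.39 ± 0.09), Pfkl (-0.31 ± 0.07) and Tpi1 (-0.31 ± 0.10) fell, and the lactate exporter Slc16a3 rose (1.12 ± 0.29). The count called lower was 3 without sham array 1, and Pfkl then had an adjusted p of 0.052.

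Output genes of the molecular clock were lower after I/R. Of 15 tested clock genes (19 listed) 6 fell and 1 rose, with a median of -0.13. The PAR-bZIP factors Hlf, Tef and Dbp, which drive rhythmic output genes, fell together. Hlf measured 0.83, 0.55 and 1.00 in sham hearts and 0.25, -0.06 and -0.12 after I/R (-0.77 ± 0.12, adjusted p = 0.000673), and Tef and Dbp fell by 0.78 and 0.76. Nfil3, the repressor that competes with them for the same sites, rose (0.72 ± 0.20). Ciart was not above background after I/R and was at least 1.54-fold lower, and Nr1d2 (-0.80 ± 0.25) and Cry2 (-0.23 ± 0.07) fell. The core activator Arntl measured 0.26 (adjusted p = 0.116). The labels give no time of day for the harvest, and its part in these values was not tested. The count called lower was 3 without sham array 1 or 3 or I/R array 2 or 3, and Nfil3 then lost its call too (adjusted p up to 0.133).

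Some protein quality control genes were lower after I/R. Of 19 heat shock genes 4 fell and 1 rose, with a median of -0.18. The mitochondrial chaperonin Hspd1 measured 0.46, 0.44 and 0.44 in sham hearts and -0.29, -0.36 and -0.52 after I/R (-0.84 ± 0.14, adjusted p = 0.00135). Hsph1 (-0.84 ± 0.21), Bag3 (-0.76 ± 0.25) and Chordc1 (-0.49 ± 0.15) fell, and the inducible Hspa1a rose (1.15 ± 0.34). The count called lower was 1 without sham array 1 and 2 without any other. Of 32 tested ubiquitin ligase and proteasome genes (33 listed) 4 fell and 0 rose, beside 8.35% of all features called lower. The 4 were Mdm2, the ligase of p53 (-0.68 ± 0.09, adjusted p = 0.000106), the proteasome subunits Psma4 (-0.35 ± 0.10) and Psmd8 (-0.26 ± 0.08) and the deubiquitinase Usp14 (-0.36 ± 0.11). The count was 1 without sham array 1 or I/R array 2 or 3 and 2 without sham array 3. Of 26 tested interferon response genes (29 listed) 2 fell and 0 rose, a share near the 8.35% of all features called lower, with a median of -0.20. Gbp3 fell (-1.07 ± 0.24), and Gbp7 was not above background after I/R and was at least 1.26-fold lower. The count was 4 without sham array 2 and 1 without sham array 1 or I/R array 3. Hspa1a lost its call without sham array 1 or 3 or I/R array 2 or 3 (adjusted p up to 0.135) and Chordc1 without all but I/R array 1 (up to 0.136).

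Among cell death and growth control genes the p53 and stress target Cdkn1a (above), the death receptor Fas (0.88 ± 0.19), Gadd45b (0.59 ± 0.10), the apoptosis effector Bak1 (0.42 ± 0.08, another probe opposite) and the survival gene Bcl2l1 (0.35 ± 0.10) rose. Gadd45a measured 0.97, 0.75 and 1.08 in sham hearts and 0.30, -0.07 and 0.14 after I/R and fell (-0.81 ± 0.13, adjusted p = 0.000652), as did Bcl2 (-0.51 ± 0.14), whose groups overlapped and whose other probe was opposite. In all 5 of 20 tested genes rose and 2 fell. Over all features, for this list and those that follow, 6.96% were called higher and 8.35% lower. Of 23 tested genes of oxidative stress and NRF2 (24 listed) 3 rose and 0 fell: haem oxygenase Hmox1 (1.22 ± 0.21, adjusted p = 0.00165) and the glutathione peroxidases Gpx1 (0.76 ± 0.11) and Gpx3 (1.25 ± 0.36). Gpx3 lost its call without sham array 1 or 3 or I/R array 1 (adjusted p up to 0.101). Of 22 unfolded protein response genes Ppp1r15a rose (0.46 ± 0.09) and Ddit3 fell (-0.40 ± 0.12, lost without all but sham array 2, up to 0.138). Of 22 cell cycle genes only Cdkn1a rose and only cyclin D2 (Ccnd2, -0.69 ± 0.14) fell. In the unfolded protein and cell cycle lists the shares called lay below those of all features. Of 25 translation genes 5 rose and 2 fell. The translation repressor Eif4ebp1 measured -0.18, -0.24 and -0.19 against 0.77, 0.66 and 0.75 (0.93 ± 0.10, adjusted p = 3.71e-05), and the cap-binding protein it holds, Eif4e, measured 1.12, 0.92 and 1.27 against 0.39, 0.19 and 0.27 (-0.82 ± 0.16, adjusted p = 0.00335). The count of translation genes called higher was 1 without sham array 3 or I/R array 3, 2 without sham array 1 or 2 and 3 without I/R array 2.

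The 15 largest decreases were Lmod3, LOC381508, Efcab2, Atp2a1, A530058N18Rik, Actc1, Sprr2b, Sspn, AK033351, Ppp1r12b, Acad11, Slc25a3, Egln1, ENSMUST00000050565 and Rap1gap2, from -1.72 to -1.19. Sarcospan (Sspn), a membrane protein of the dystrophin complex, measured 1.88, 1.86 and 1.85 in sham hearts and 1.01, 0.41 and 0.25 after I/R (-1.31 ± 0.31, adjusted p = 0.00888, and 0.0526 without I/R array 3). The myosin phosphatase subunit Ppp1r12b measured 1.83, 1.75 and 1.78 against 0.84, 0.36 and 0.37 (-1.27 ± 0.18, adjusted p = 0.000361). Sham arrays agreed closely for both, and I/R array 1 was the highest I/R array. Another Ppp1r12b probe differed by only -0.22. The mitochondrial phosphate carrier Slc25a3 and the oxygen sensor Egln1 fell by 1.24 and 1.22. Of the 15, 7 kept their call whichever array was left out. Efcab2 lost it in all 6 cases (adjusted p up to 0.141), Egln1 without all but I/R array 1 (up to 0.152) and Slc25a3 without sham array 1 or 3 or I/R array 2 or 3 (up to 0.114). Rap1gap2 reached 0.0527 without I/R array 3, A530058N18Rik 0.0524 without I/R array 2 and ENSMUST00000050565 up to 0.0544 without sham array 3 or I/R array 3. A530058N18Rik was 0.60 higher, not lower, when Agilent's own ratio was used. By smallest p the increases were led by St3gal1 (0.83 ± 0.09), Eif4ebp1, BC023892 (1.07 ± 0.12) and Socs3, and the decreases, after the Sprr2 genes, included Reep5 (-1.08 ± 0.12) and Rbfox1 (-0.74 ± 0.08). Reep5 shapes the sarcoplasmic reticulum and Rbfox1 is a muscle splicing factor. Gsg1l was not above background after I/R and was at least 1.53-fold lower. In all, 14 features called higher were not above background on any sham array and 51 called lower on no I/R array. Of 566 called features with another probe, 120 had one that went the other way. Where another probe went the same way its size could differ, and not every such probe is given here.

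The smallest p of the whole comparison belonged to Sprr2b, and the Sprr2 genes were also where the Tg+ response differed from that of wild type. Small proline-rich proteins are cross-linked into the cornified envelope of epithelia. Sprr2b measured 1.27, 1.41 and 1.41 in Tg+ sham hearts and -0.10, 0.11 and 0.15 after I/R, a fall by 1.31 on the log2 scale (SE 0.10, adjusted p = 2.78e-07). Sprr2k measured 0.93, 1.14 and 1.04 against 0.09, 0.10 and 0.28 and fell by 0.88 (SE 0.08, adjusted p = 2.32e-06). In both genes every I/R array lay far below every sham array. In wild-type tissue above the site Sprr2b was low in both states, -0.29 ± 0.10 (SD, n = 3) in sham hearts and -0.16 ± 0.10 (SD, n = 3) after I/R. The response in Tg+ minus that in wild type was -1.44 ± 0.13 for Sprr2b (adjusted p = 2.01e-05) and -0.93 ± 0.11 for Sprr2k (adjusted p = 0.000243). These were the only features of 11418 to pass this test (0.0175%), while 948 (8.3%) had an unadjusted p under 0.05. After I/R the Tg+ minus wild-type difference was 0.22 ± 0.10 for Sprr2b (adjusted p = 0.308) and 0.11 ± 0.08 for Sprr2k (adjusted p = 0.578). Below the site Sprr2b moved the same way in Tg+ hearts, from 1.28 ± 0.18 (SD, n = 3) to -0.05 ± 0.10 (SD, n = 3). With Agilent's own ratio the adjusted p of the genotype difference in response was 0.547 and 0.589, with the authors' deposited values it was 0.546 and 0.591, and with the slide as a block 0.0673 for both. For Sprr2k it was also 0.0669 with the Cy5 channel alone and 0.0521 with only the arrays of the comparison. The Sprr2 genes are closely related copies of each other, so which copy each probe measured is uncertain.

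**Figure D5:**
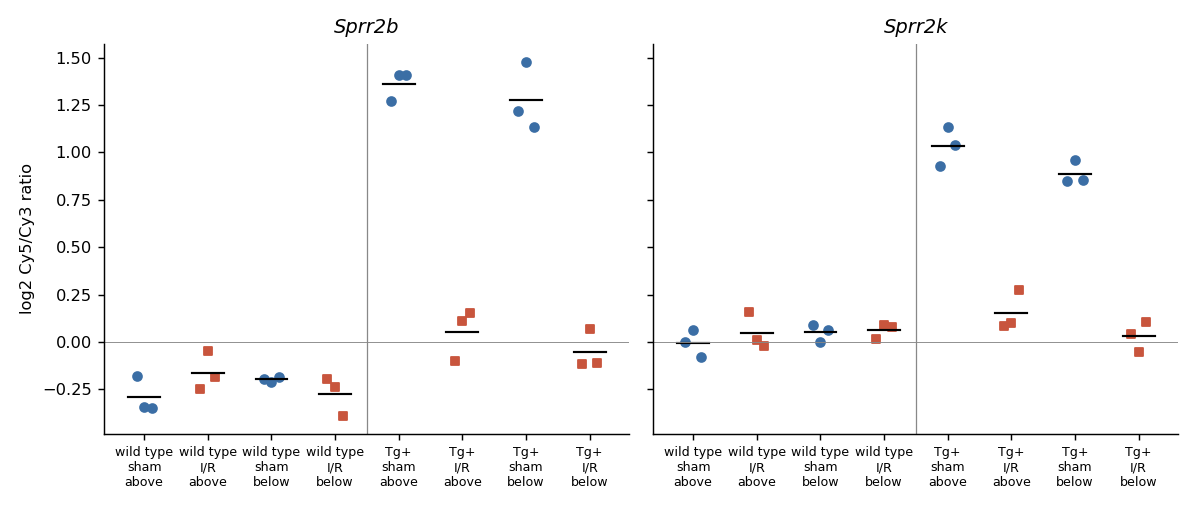
Log2 Cy5/Cy3 ratio of Sprr2b (left) and Sprr2k (right) on each of the 24 arrays, sham in blue circles and I/R in red squares, 3 arrays a group, with group means as black lines. Tg+ sham hearts lie at 0.85 to 1.48 in both pieces, and every other group, Tg+ after I/R included, lies between -0.39 and 0.28.

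The 250 bases before the start of each of these genes are shown because they are the features whose response differed by genotype. They come from RefSeq (GRCm38.p6), 5′ to 3′ on the plus strand, at chr3:92316455-92316704 for Sprr2b and chr3:92432332-92432581 for Sprr2k, and capitals mark matches to the AP-1 motif TGANTCA on either strand.
Sprr2b: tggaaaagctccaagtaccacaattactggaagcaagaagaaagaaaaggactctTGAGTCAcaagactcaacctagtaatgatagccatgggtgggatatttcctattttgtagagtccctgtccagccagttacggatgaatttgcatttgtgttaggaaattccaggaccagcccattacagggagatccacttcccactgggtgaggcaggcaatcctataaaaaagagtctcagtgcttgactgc
Sprr2k: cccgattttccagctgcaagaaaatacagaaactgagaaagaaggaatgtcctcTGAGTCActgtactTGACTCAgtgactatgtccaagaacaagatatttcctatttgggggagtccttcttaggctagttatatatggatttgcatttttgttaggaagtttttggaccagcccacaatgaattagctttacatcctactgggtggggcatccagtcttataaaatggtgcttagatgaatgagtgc
Sprr2b had 1 match, at -195 to -189 counted from the start of the gene, and Sprr2k had 2, at -196 to -190 and -182 to -176. The windows were identical at 164 of 253 aligned positions (64.8%). The AP-1 motif was in 6.87% of all promoter windows, 4.23% of those of tested features, 6.36% of those called higher, 4.54% of those called lower and 11.0% (9 of 82) of those that rose by at least 1 log2 unit. For the other motifs searched the shares were 10.2% of windows called higher and 10.1% of those called lower against 10.6% for the TEAD motif GGAATG, 5.83% and 6.10% against 8.63% for the E-box CACGTG, 0.707% and 0.567% against 0.541% for the D-box TTATGCAA, and 1.94% and 1.13% against 1.26% for the CArG box. Among those 82 windows the shares were 48.8% for the MRE, 13.4% for the TEAD motif, 2.44% for the E-box, 1.22% for the D-box and 3.66% for the CArG box. A window was at hand for 566 of the 795 features called higher and 705 of the 953 called lower. These shares were not tested.

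Apart from the Sprr2 genes, no feature's response was shown to differ from that of wild-type hearts in the same piece. Among the next by p were Yaf2, Snx12 and Rab35 (adjusted p = 0.0851 each). On the wild-type side, however, 2 of the 3 I/R arrays had under 25% of Cy5 spots above background (24.2% and 15.7%). Without the weak arrays of the series the count was 49, and with array weights 975. Mt2 went from -2.70 ± 0.19 (SD, n = 3) to 2.14 ± 1.38 (SD, n = 3) in wild type, and its difference in response was -0.58 ± 1.06 (adjusted p = 0.985). For Lmod3, which went from 1.58 ± 0.09 (SD, n = 3) to -0.02 ± 0.43 (SD, n = 3), it was -0.12 ± 0.27 (adjusted p = 0.988). For Ccn2 it was 0.96 ± 0.75 (adjusted p = 0.838). Of all features, 5.98% were called higher and 7.32% lower in wild type, against 6.96% and 8.35% here. Side by side, 10 IL-6 and C/EBP genes rose in wild type against 12 here, 8 glucocorticoid genes against 13, 2 immediate early genes against 7 and 5 TCA cycle genes fell against 7. Of the endothelial markers 0 rose and 4 fell in wild type, against 3 and 0 here. Whether these list counts differ was not tested.

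Nor did any feature pass the test of a different response below the tie in the same Tg+ hearts (0% called, 716 features or 6.27% at an unadjusted p under 0.05). The smallest adjusted p was 0.099, for the complex I subunit Ndufc2. It measured 0.62, 0.61 and 0.72 above the site in sham hearts and 0.56, 0.69 and 0.47 after I/R, and below the site went from 0.80 ± 0.08 (SD, n = 3) to 0.05 ± 0.13 (SD, n = 3), a difference in response of 0.67 ± 0.11. Gpatch4 (-0.77, adjusted p = 0.228) and the CTP synthase Ctps (-0.95, adjusted p = 0.241) came next. Below the tie 2 of 3 I/R arrays had weak Cy5 signal (13.5% and 20.1%). The count was 61 without the third, I/R below array 1, 2 without I/R above array 3, 6 without the weak arrays of the series and 727 with array weights. Of all features, 15.3% were called higher and 17.1% lower below the tie, more than above it. Below the tie 21 of 28 TCA cycle genes fell, against 7 above it, 14 against 1 fatty acid oxidation genes, 15 against 4 sarcomere genes and 11 against 5 channel genes. For IL-6 and C/EBP genes 11 rose below and 12 above. Both pieces came from the same hearts, but the main fit treated them as independent arrays. With pieces of the same replicate number taken as the same heart, the consensus correlation within a heart was 0.0754. Whether these counts differ was not tested.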

How the data were processed

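RNA of mouse heart pieces was hybridised to 24 2-colour Agilent arrays, 3 in each of 8 groups by genotype, surgery and piece, and 6 of them make up the comparison. Spot and background intensities and the log10 ratio of red over green were made with Agilent Feature Extraction 9.5.3.1, per the file headers. The authors also deposited a log2 ratio table, whose centring is not stated; it matched each array's own ratios with correlations of at least 0.986. The labels name Cy5 as the dye of the heart RNA, although the labelling protocol in the labels speaks of Cy3-CTP, and ratios were taken as Cy5 over Cy3. From the deposited intensities, background was corrected by normexp (offset 50) and dyes by loess within arrays, with control and outlier spots left out, in limma 3.58.1 under R 4.3.3. Duplicate spots were averaged. Of 41174 probes, 15412 were kept because Cy5 was well above background on every array of at least 1 group, and each of 11419 features took its probe of highest mean Cy5. RefSeq accessions named 22951 probes, and 18223 kept the array design's own name. A single limma fit over all 8 groups (16 residual degrees of freedom) gave 2-sided p-values, adjusted by Benjamini-Hochberg over all features, with a threshold of 0.05. The p-values measure the spread between samples that the labels call biological replicates. Sham and I/R arrays with the same replicate number did not deviate together (correlations 0.0874, 0.0296 and -0.172), so the numbers were not used as pairs. The number of arrays limits the precision.

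The comparison and the 38 gene lists were chosen with earlier results of these data known. The genes named were Trim63, the 15 largest increases and decreases past the threshold, the 10 of each with the smallest p, up to 4 called members of each list by smallest p, and for each interaction up to 4 called in each direction or else the 3 smallest p. Other list members with values were chosen after their values were seen. The code was tested on simulated data. The alternatives were Agilent's ratio, the deposited table, no background correction, Cy5 alone, no filter, the mean of a gene's probes, blocks for slide, heart and replicate number, array weights, fewer arrays and each array left out. No source used here names the array's genome build, and no probe positions are printed. A few members that the rule names or the lists hold are counted but not reported here.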

Additional observations from a re-analysis of the deposited data

Results flagged for a closer look

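The response to I/R above the tie differed between genotypes for Sprr2b and Sprr2k, by the interaction term of the limma fit. The Tg+ minus wild-type difference in response was -1.44 for Sprr2b (adjusted p = 2.01e-05) and -0.93 for Sprr2k (adjusted p = 0.000243). In Tg+ hearts all 3 I/R arrays lay below all 3 sham arrays for both genes, while the wild-type groups of Sprr2b had means of -0.29 in sham hearts and -0.16 after I/R. With the slide as a block the adjusted p was 0.0673 for both genes. Neither gene passed with Agilent's own ratio or the authors' deposited values, where the adjusted p, given above, was far larger.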

How the results depend on the processing

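The 1748 calls of I/R against sham moved to 728 with Agilent's ratio (54.5% of them higher, against 45.5%), 731 with the deposited table, 359 with the slide as a block, 3697 with only the 6 arrays, 4767 without the arrays of weak Cy5 signal and 5084 with array weights. They were 686 to 1928 when 1 array was left out, and 1541 with the replicate block, of which 1522 were among the 1748. The 2 calls of the genotype difference became 0 with Agilent's ratio, the deposited table or the slide as a block, 1 with Cy5 alone or with only the arrays of the comparison, 49 without the weak arrays and 975 with array weights, and were 2 to 9 when 1 array was left out (9 without Tg+ I/R above array 1). The 0 calls of the difference between pieces became 1 without the filter on dim probes, 6 without the weak arrays and 727 with array weights, and were 0 to 61 with 1 array left out. A530058N18Rik turned to 0.60 with Agilent's ratio and the deposited table, and Acta2 to 0.13 with the mean of its probes. The cause was not tested. Of 139 called genes that the rule named, 89 kept their call whichever array was left out and 56 did so in all 18 alternative fits. Signal over background limits what could be tested: 17 of 29 listed cytokine genes and 7 of 15 neutrophil markers. Only 1 slide held both groups.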
